A study of Drosophila melanogaster with 4 samples.

Results

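RPD3 is a histone deacetylase of Drosophila melanogaster, an enzyme that removes acetyl groups from lysines of the histone tails. It works as the catalytic subunit of corepressor complexes such as the SIN3 complex, and it is brought to DNA by repressors such as Groucho. Histone deacetylases of this class are found at active genes as well as at silenced ones, so a site of RPD3 need not be a silent gene. Described here are the RPD3 sites on distal 3L, the left arm of chromosome 3 without the 2 Mb next to its centromere end. The sites are regions that the authors called significantly enriched and deposited as lists, here named clusters. Members were all clusters of the combined replicate list on 3L that were narrower than 10000 bp and had their midpoint at or below position 22543557. This rule took 1295 of the 1392 clusters on 3L and of the 7145 in the whole combined list. The calls themselves chose the members, so their number and widths are descriptions.

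RPD3 was mapped by ChIP-seq, in which chromatin is immunoprecipitated and the recovered DNA is sequenced, with the antibody labelled RPD3-Q3451. The nuclei came from wild-type Oregon-R larvae at the third instar. There were 2 ChIP samples and 2 Input samples, and the labels pair each ChIP list with the Input of its own replicate. All 4 samples shared strain, genotype, stage and starting material, and none of the 4 is labelled as a mutant or as a control without antibody. Homogenized larval tissue holds diploid and polytene cells, and a site bound in many nuclei cannot be told apart from one bound more strongly in fewer. Nothing in the labels tells if the replicates are separate collections, and the spread between them may be technical. The lists hold no read counts, and read depth is unknown. Coordinates are those of FlyBase release 5, as deposited. Names of genes and DNA sequence at these positions are not reported here, since the gene table at hand describes release 6.

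RPD3 clusters under 10 kb were spread over the whole of distal 3L in both replicates. Replicate 1 held 990 such clusters and replicate 2 held 894 within the same limits, a mean of 942 ± 67.9 (SD, n = 2). They covered 14.1% of the 22.5 Mb in replicate 1 and 12.1% in replicate 2, a mean of 13.1% ± 1.37 (SD, n = 2). The 1295 members of the combined list covered 16.5%, or 3.73 Mb. Replicate 1 thus had more clusters and a larger covered share than replicate 2, while the widths were nearly the same, with medians of 2522 bp and 2528 bp. The members were narrower, with a median width of 2165 bp and 25th and 75th percentiles of 1498 and 3588 bp.

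Scores are the authors' own value per cluster, on a scale that the sources used here do not give, and they serve below to rank clusters within a list. Member scores ran from 0.0398 to 2.41 with a median of 0.441. Clusters within the same limits had a median of 0.746 and a highest score of 2.67 in replicate 1, and 0.800 and 2.54 in replicate 2. At the width limit the widest member measured 9872 bp with a score of 1.18, and the narrowest cluster outside the limit measured 10004 bp with a score of 0.724. At the position limit the last member lay at 22463296 to 22464580, and the next cluster outside began at 22609166.

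Beside distal 2L and distal 3R, cut at the same distance from the centromere end, distal 3L had similar numbers of clusters per Mb in the replicate lists. Replicate 1 held 43.9 per Mb on 3L, 41.6 on 2L and 43.5 on 3R. The values in replicate 2 were 39.7, 38.0 and 39.5. In the combined list the arms lay further apart, at 57.4 per Mb on 3L, 50.9 on 2L and 53.8 on 3R, which was not tested. The covered shares were also close, at 14.1%, 13.4% and 14.4% in replicate 1 and 12.1%, 11.7% and 12.6% in replicate 2, and these differences between arms were smaller than the differences between replicates. Clusters of high score took a smaller share on distal 3L, which was not tested. Of the 1295 members 90, or 6.95%, reached the 90th percentile of all combined scores, against 9.63% of all combined clusters under 10 kb, 10.1% on distal 2L and 9.54% on distal 3R. In the replicates the shares at the 90th percentile of the same list were 7.07% and 7.27% on 3L, 9.94% and 9.51% on 2L, and 9.41% and 9.67% on 3R. The share was thus lowest on 3L in each of the 3 lists. All arms were measured in the same 2 ChIP samples.

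The strongest RPD3 sites that both replicates called were wider than most members, but not much wider than other members in both replicates. The 10 with the highest scores were between 2307 and 6018 bp wide, with a median of 3653 bp. All 652 members in both replicates had a median of 3428.5 bp. The 10 were chosen among these members, and each of the 10 met exactly 1 cluster in either replicate. The member that ranked 5 in score, at 21148979 to 21149979 with 2.03, is not among them because neither replicate called it. The highest lay at 18080133 to 18082439, with a score of 2.41. Replicate 1 gave it 2.67, the highest of its 990 clusters within the same limits, and replicate 2 gave it 2.07, rank 8 of its 894. The next lay at 22126763 to 22130524 with a score of 2.24, and it ranked 2 in replicate 1 with 2.36 and 3 in replicate 2 with 2.22. Both were therefore near the top of either replicate on distal 3L.

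The member at 4624829 to 4629732, with a score of 2.23, differed more in rank between the replicates. Within the same limits it was the highest of replicate 2 with 2.54 and ranked 18 in replicate 1 with 1.89. The member at 16042873 to 16046797 scored 2.19, with rank 4 in replicate 1 (2.19) and rank 2 in replicate 2 (2.31). The member at 17042392 to 17045935 scored 1.98, with ranks 6 and 10. All 5 of these members were thus among the 18 highest of distal 3L in both replicates. These ranks do not extend to other arms, since distal 2L held scores up to 4.00 in replicate 1 and 3.57 in replicate 2.

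The other 5 of the 10 had scores between 1.89 and 1.95. They lay at 6542301 to 6545224, 2465433 to 2468133, 14041651 to 14047668, 21277643 to 21283056 and 14182123 to 14185075. Their scores in replicate 1 were 2.17, 2.05, 2.12, 2.11 and 1.85 in this order, and those in replicate 2 were 1.86, 1.96, 1.82, 1.80 and 2.01. In both replicates they stayed within the top 27 clusters of distal 3L.

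**Figure D1:**
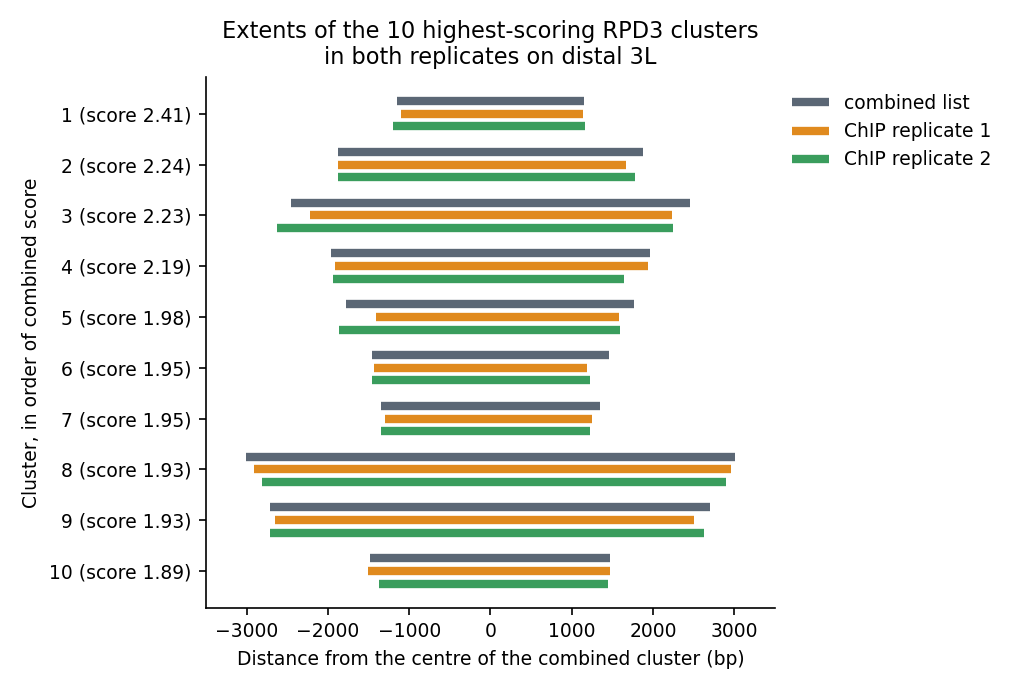
Extents of the 10 highest-scoring clusters of distal 3L that both replicates overlap. The horizontal axis is the distance in bp from the centre of the combined cluster, and the bars show the combined cluster (grey), the cluster of ChIP replicate 1 (orange) and that of ChIP replicate 2 (green); each of the 10 had exactly 1 cluster in each replicate, and combined widths ran from 2307 to 6018 bp.

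Several of these 10 sites lay in sparse windows of 500 kb, but for some of them this depended on the window size. Of the 10, 8 lay in the 22 windows of 500 kb whose covered share was below the median of 45 windows, 14.8%, where 446 of all 1295 members (34.4%) lay. Of the 20 highest-scoring members in both replicates 13 lay there. The top-scoring member lay in the window at 18.0 to 18.5 Mb, which was 6.93% covered and ranked 44 of 45. The next highest lay in the window at 22.0 to 22.5 Mb, with 8.35% and rank 41, and the member at 4624829 in the window at 4.5 to 5.0 Mb, with 8.19% and rank 42. The member at 4624829 stood alone, 70.3 kb from the nearest cluster on one side and 62.3 kb on the other. Others had close neighbours, such as the member at 14041651, with gaps of 169 and 365 bp. The median distance to the nearest combined cluster was 4068 bp for the 10 and 1478 bp for all members. For the 10 this distance ran from 129 to 62342 bp, so the median describes no typical site. These 10 were chosen by score and no test was made.

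Covered shares varied along the arm by more than the replicates differed, and both replicates traced the same profile. Over the 45 windows of 500 kb the share under members ran from 2.26% to 34.9%. It ran from 1.06% to 29.6% in replicate 1 and from 1.32% to 24.3% in replicate 2, with medians of 13.6% and 12.5%. Spearman's rho between the replicates was 0.93 and Pearson's r was 0.94 across the 45 windows, which share the 2 libraries and are not independent. Replicate 1 had the higher share in 37 of the 45 windows. Dense windows held more members, and their number, from 6 to 50 per window, followed the covered share with a rho of 0.96. The median score of the members in a window followed it less closely, with a rho of 0.41.

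**Figure D2:**
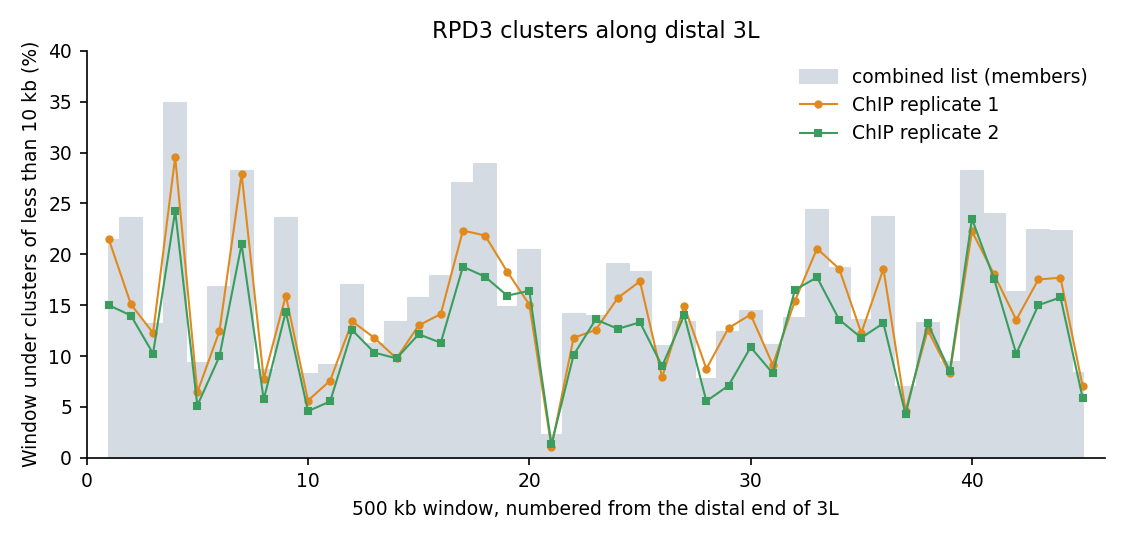
Share of each 500 kb window of distal 3L under RPD3 clusters narrower than 10 kb, in percent, with 45 windows numbered from the distal end. Grey steps show the combined list, orange circles ChIP replicate 1 and green squares ChIP replicate 2; both replicates have their highest value in window 4 and their lowest in window 21.

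The densest window lay at 1.5 to 2.0 Mb and held 50 members on 34.9% of its length, with 29.6% in replicate 1 and 24.3% in replicate 2. Their median score was 0.593, and both replicates overlapped 32 of the 50. The next densest in the combined list were the windows at 8.5 to 9.0 Mb, with 46 members on 28.9%, and at 19.5 to 20.0 Mb, with 47 members on 28.2%. In the first of these the replicates gave 21.8% and 17.8%. In the second they gave 22.3% and 23.5%, so that replicate 2 had the larger share there. The order after the first window differed between lists. The window at 3.0 to 3.5 Mb ranked 4 in the combined list with 28.2% but 2 in replicate 1 with 27.9% and 3 in replicate 2 with 21.0%, while that at 8.5 to 9.0 Mb ranked 5 in both. With clusters of any width counted, the window at 3.0 to 3.5 Mb was 40.5% covered in the combined list and that at 1.5 to 2.0 Mb 39.8%. The highest member score in the window at 19.5 to 20.0 Mb was 1.05, the lowest such value of the 45 windows. It was still above the 75th percentile of all member scores, 0.813. That window also held 4 combined clusters of at least 10 kb, which are not members and whose scores are not given here.

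The sparsest window, at 10.0 to 10.5 Mb, held 6 members on 2.26% of its length, and 2 of them were overlapped by both replicates. One was at 10216572 to 10219683, with a score of 1.26 and scores of 1.37 and 1.56 in replicates 1 and 2. The other was at 10454704 to 10457445, with 0.771, and 0.790 and 0.917. Another member, at 10317825 to 10319238, was overlapped by replicate 2 alone, with a score of 0.315. The remaining 3 were in neither replicate and scored between 0.258 and 0.427. This window is therefore sparse in both replicates but not without sites that both called.

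The windows at 18.0 to 18.5 Mb and 13.5 to 14.0 Mb were the next sparsest, with 15 members on 6.93% and 15 members on 7.74%. The first held the top-scoring member of the arm and also one at 18053963 to 18057831, which scored 1.32, with 1.72 in replicate 1 and 1.64 in replicate 2. In the second the highest member lay at 13955514 to 13959831 with a score of 1.60, and 1.69 and 1.61 in the replicates. Both windows thus combined few sites with some that ranked high in both replicates.

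The longest stretch without any combined cluster, at 13510615 to 13837577, spanned 327 kb and held no cluster of either replicate. The next ran from 9967550 to 10213852 (246 kb) and from 9131320 to 9322541 (191 kb), also empty in both replicates. The clusters at the distal edges of these 3 stretches were members called in both replicates, with scores of 0.965, 0.940 and 1.04. At the other edges lay members with scores of 0.445, 0.303 and 0.359. The lists do not tell whether reads could be placed there, and an empty stretch does not show that RPD3 was absent.

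In stretches of 5 Mb the number of members per Mb was 65.8 from 0 to 5 Mb, 59.6 from 5 to 10 Mb, 44.6 from 10 to 15 Mb and 57.0 from 15 to 20 Mb. The last 2.54 Mb of the range had 62.9. The stretch from 10 to 15 Mb was the least covered in both replicates, with 11.7% and 9.76%, where the other stretches had 14.2% to 15.5% in replicate 1 and 12.4% to 13.1% in replicate 2. Median member scores in the combined list ran from 0.428 to 0.462, with 0.449 from 10 to 15 Mb. In the replicates that stretch had the lowest medians, 0.700 against 0.726 to 0.765 in replicate 1 and 0.738 against 0.743 to 0.897 in replicate 2. These differences were not tested.

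Neighbouring members were often close together. Of the 1294 gaps between neighbouring members 443, or 34.2% (Wilson 95% interval 31.7 to 36.9%), were under 2 kb, and the median gap was 4662 bp. In replicate 1 the share was 27.2% of 989 gaps and in replicate 2 it was 25.4% of 893, against 28.3% and 27.4% on distal 2L and 29.6% and 26.0% on distal 3R. Joining members separated by under 2 kb gave 852 groups, of which 590 were single members, 157 were pairs and 105 held 3 or more. The 391 members in the 105 larger groups had a median score of 0.452 and a median width of 2469 bp, against 0.427 and 1989 bp for the single members. Both replicates overlapped 51.2% of the former and 47.3% of the latter, so the groups differed more in width than in score or overlap.

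The largest groups were 2 of 7 members and 9 of 6. One of the former spanned 173177 to 202153 with 7 members on 80.0% of its 28977 bp. Only 3 of the 7 were overlapped by both replicates, at 173177 to 179505, 182296 to 186427 and 193924 to 202153, and these scored 0.665, 1.17 and 1.20. The 4 between them were in neither replicate, were 1001 to 1416 bp wide and scored between 0.297 and 0.436. This group thus consisted of 3 broader clusters with narrow low-scoring ones between them.

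The other group of 7 spanned 1530394 to 1561223, with members on 91.5% of its 30830 bp, and both replicates overlapped 5 of the 7. Clusters of replicate 1 covered 75.7% of it and those of replicate 2 covered 55.6%. Of the 9 groups of 6 members, the most distal spanned 238674 to 256026 and is given here by position alone. Of its members 2 were in both replicates, with scores of 0.546 and 1.18, and 4 were in neither, with scores of 0.353 to 0.377. In the other 8 groups of 6, spread from 1737470 to 21522731, both replicates overlapped 0 to 4 of the 6. The group without any such member spanned 8453284 to 8469838, where replicate 1 had 3 clusters and replicate 2 had 0. Around the 63 clusters of distal 3L that are at least 10 kb wide, 56 members lay within 2 kb, beside 49 of the 63. Those 56 had a median score of 0.480, against 0.440 for the other 1239.

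About 50% of the members were called in both replicates. Both replicates overlapped 652 of the 1295 by at least 1 bp, which is 50.3% (Wilson 95% interval 47.6 to 53.1%), against 51.6% of all combined clusters under 10 kb. Replicate 1 alone overlapped 216, or 16.7% (14.7 to 18.8%), against 16.3% of all. Replicate 2 alone overlapped 66, or 5.10% (4.03 to 6.43%), against 5.22%. Neither replicate overlapped 361, or 27.9% (25.5 to 30.4%), against 26.9%. Each share on distal 3L was thus close to that of the whole list. The intervals cover counting error only. The 652 members in both replicates held 71.5% of the sequence under members, and the 361 in neither held 13.1%. The combined list was made from the same samples, so no test was made of these overlaps.

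Seen from the replicates, 757 of the 990 clusters of replicate 1 overlapped replicate 2, which is 76.5% (Wilson 95% interval 73.7 to 79.0%), against 76.6% of its clusters under 10 kb on all chromosomes. Of the 894 of replicate 2, 818 overlapped replicate 1, which is 91.5% (89.5 to 93.2%), against 91.3%. The combined list held 981 of the 990 and 888 of the 894. The clusters found in 1 replicate alone were narrower and scored lower, with median widths of 1794 and 1501 bp against 2973 and 2639 bp, and median scores of 0.526 and 0.501 against 0.901 and 0.866, in replicates 1 and 2.

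Width separated the members that both replicates called from those that neither did. Of the 236 members narrower than 1301 bp, the width of the narrowest replicate cluster, both replicates overlapped 0, and 208, or 88.1%, were in neither. Among the 329 members of 1301 to 1999 bp, 29 (8.81%) were in both and 137 (41.6%) in neither. The share in both was 75.0% of the 304 members of 2000 to 2999 bp, 89.2% of the 240 of 3000 to 4999 bp and 97.3% of the 186 of 5000 to 9999 bp. The largest step between neighbouring width classes lay at 2 kb. Shares by width class were not computed for other arms, so they do not describe a feature of this arm alone. Median widths of members in both and in neither were 3428.5 and 1259 bp. For the clusters of distal 2L they were 3484 and 1249 bp, and for those of distal 3R 3781 and 1215.5 bp. Clusters in both were thus wider on each of these arms.

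**Figure D3:**
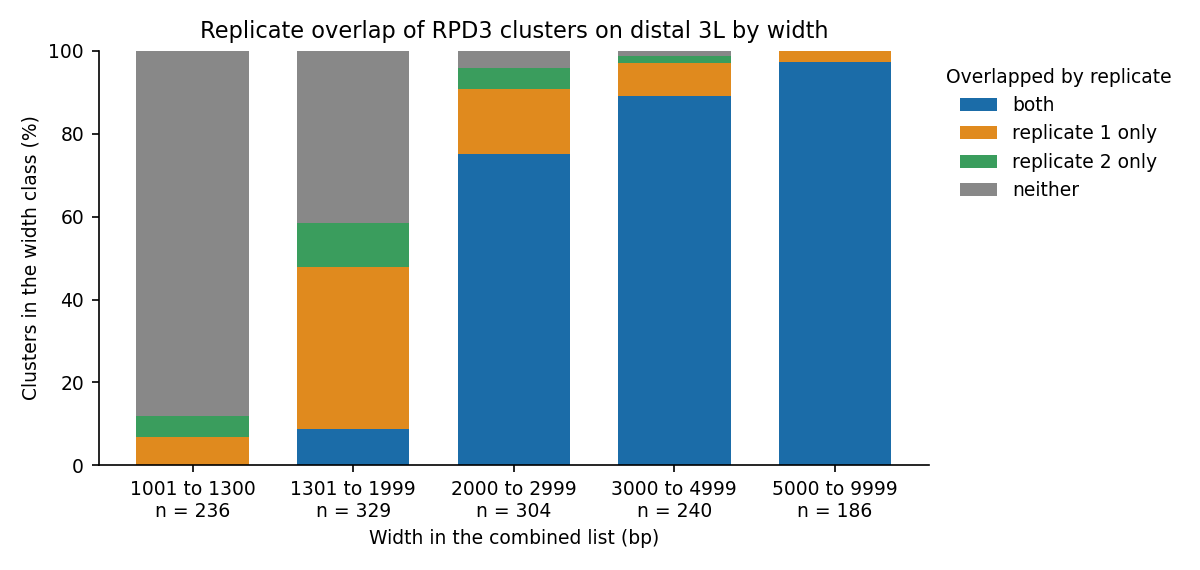
Share of the members of distal 3L, in percent, that are overlapped by both replicates (blue), by replicate 1 only (orange), by replicate 2 only (green) or by neither (grey), in 5 width classes in bp with the number of members under each bar. The share in both is 0 in the narrowest class, 8.81% in the next, 75.0% from 2000 bp and 97.3% from 5000 bp.

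Scores showed a step at the same width. Members of 1800 to 1999 bp had a median score of 0.344 and a highest score of 0.460 (n = 104), while those of 2000 to 2199 bp had a median of 0.467 and a highest score of 1.42 (n = 94). The scores thus spread upwards from 2 kb on. In replicate 1 the medians on the 2 sides were 0.475 and 0.640 and the highest scores 0.715 and 1.59. In replicate 2 they were 0.488 and 0.600, and 0.609 and 1.22. Over all chromosomes, 3L included, the combined clusters had medians of 0.347 and 0.478 on these sides, and 90th percentiles of 0.419 and 0.857. Their highest scores were 1.73 and 2.62. The step in the median was thus also seen over all chromosomes, but the low highest score below 2 kb was not. In the top 25% of scores on distal 3L, 0 of 248 clusters of replicate 1 and 0 of 224 of replicate 2 were narrower than 2 kb, although 271 and 238 of all their clusters there were. The combined list had 3 among 324. The width of 2 kb was chosen after these values were seen, width and score come from the same call, and what sets the step was not tested. Below 2 kb wider members did not score higher, since those of 1001 to 1300 bp had a median of 0.383 and those of 1301 to 1999 bp one of 0.330. Over all members Spearman's rho of width and score was 0.71.

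**Figure D4:**
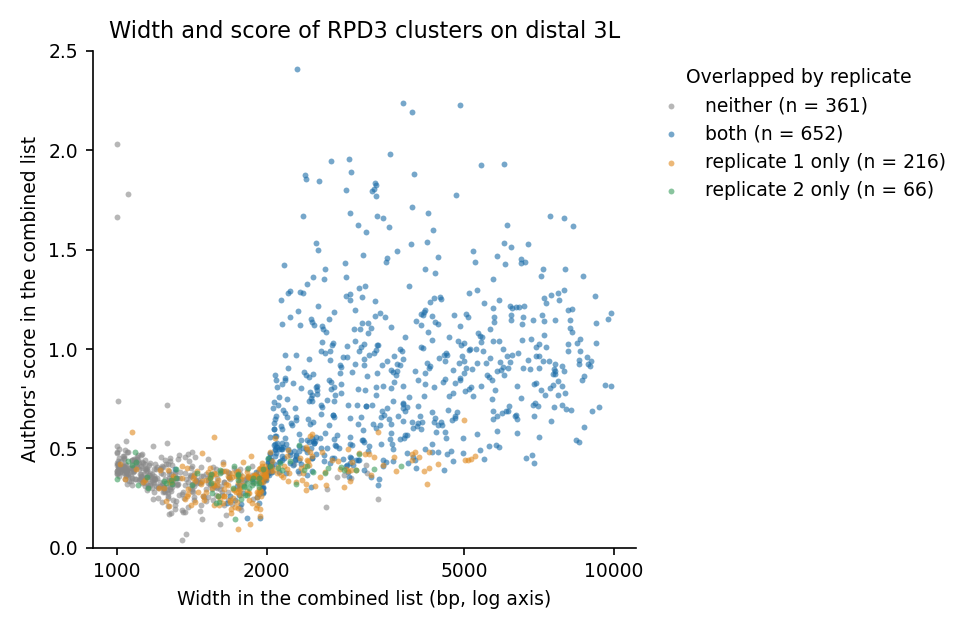
Width (bp, log axis) and authors' score in the combined list of the 1295 members of distal 3L, coloured by the replicates that overlap them. Below 2000 bp all but 3 members with scores of 1.66 to 2.03 and 2 with scores of 0.718 and 0.737 lie under 0.6, and from 2000 bp the members in both replicates (blue) spread up to 2.41.

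Members in both replicates scored higher than the rest. Their median score was 0.809 (25th to 75th percentile 0.540 to 1.06), while the medians were 0.360 for replicate 1 alone, 0.355 for replicate 2 alone and 0.363 for neither. The last 3 classes thus had almost the same scores. Within 2000 to 2999 bp the medians were 0.620 for both, 0.403 for replicate 1 alone, 0.403 for replicate 2 alone and 0.378 for neither. Within 1301 to 1999 bp the order did not hold, with 0.302 for both against 0.333, 0.327 and 0.332. In the top 25% of member scores 321 of 324 were in both replicates, and in the lowest 25% 26 of 324 were. Shares by score were not computed for other arms, so they do not describe a feature of this arm alone. Median scores of clusters in both and in neither were 0.822 and 0.363 on distal 2L, and 0.845 and 0.371 on distal 3R.

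A few wide members were called in neither replicate. Of the 730 members of at least 2000 bp, 623 were in both replicates and 16 in neither. The widest of the 16 lay at 8924286 to 8927637, 17507 bp from the nearest cluster of replicate 1 and 18366 bp from that of replicate 2, with a score of 0.245. The next, at 4111128 to 4114313 and 1655702 to 1658866, scored 0.377 and 0.418. All 16 had scores of at most 0.439.

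Where a member met 1 cluster in each replicate, the replicates ranked it alike and placed it at nearly the same position. This was so for 556 of the 652 members in both, counting only replicate clusters that touch no other combined cluster. Spearman's rho between the replicate scores was 0.89 and Pearson's r was 0.91 across these 556, which share the 2 libraries. The median distance between the replicate midpoints was 126 bp, the 90th percentile was 656 bp and the largest was 2128 bp. Of the 556 pairs 345, or 62.1%, were under 200 bp apart. Both clusters of a pair had to overlap the same member, so their closeness is partly set by this choice. Placement was a little closer at stronger sites, with medians of 144.5 bp in the lowest 25% of combined scores and 106.5 bp in the top 25%. Replicate 1 had the wider cluster in 356 of the 556, with medians of 2787 and 2526 bp, and the combined cluster was wider still at 3180 bp.

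**Figure D5:**
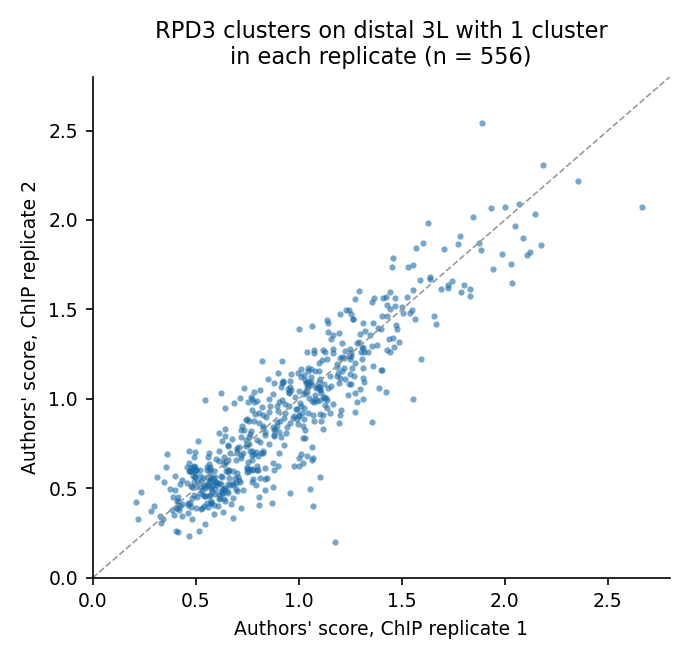
Authors' scores in ChIP replicate 1 (horizontal) and ChIP replicate 2 (vertical) of the 556 members of distal 3L with exactly 1 cluster in each replicate, with the line of equal scores dashed. The points follow a band with a Spearman's rho of 0.89, and the lowest point to the right of it is the member with 1.18 in replicate 1 and 0.202 in replicate 2.

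Disagreement between the replicates was largest at a member on 18452580 to 18454642. It scored 1.18 in replicate 1, rank 181 of 990, and 0.202 in replicate 2, rank 893 of 894, although the 2 clusters had nearly the same limits, 18452571 to 18454701 and 18452639 to 18454459. The members at 20089534 to 20091603 and 21645053 to 21647155 followed, with 1.07 and 1.05 in replicate 1 and 0.400 and 0.499 in replicate 2. The next was at 3941348 to 3943775, with 0.956 and 0.471. These 4 were chosen after their values were seen. They were 2063 to 2428 bp wide and all ranked higher in replicate 1.

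Combined scores mostly lay under those of the replicates. In 316 of the 556 the combined score was lower than both replicate scores, in 238 it lay between them and in 2 it exceeded both. The order was kept, with a rho of 0.97 between the combined and replicate 1 scores and 0.95 with replicate 2. What the combined score measures is unknown, and its scale may differ from that of the replicate scores. The counts above therefore describe the deposited values and not a difference in binding.

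Members that were split in a replicate were mostly wide. A member was overlapped by 2 or 3 clusters of replicate 1 in 47 cases and of replicate 2 in 61, and 84 members were split in at least 1 replicate, with a median width of 6924 bp. Most wide members were not split, since 66 of the 186 of at least 5000 bp (35.5%) were. The 5 widest members lay at 5126022 to 5135893, 8499042 to 8508899, 17002011 to 17011740, 1535083 to 1544671 and 14760877 to 14770204, with widths of 9328 to 9872 bp. Each was 1 cluster in replicate 1, while 4 of the 5 were 2 clusters in replicate 2. The exception, at 17002011, was 1 cluster in both and scored 1.15 in the combined list, with 1.19 and 1.18 in replicates 1 and 2. The widest had a score of 1.18, with 1.19 in replicate 1 and 1.41 and 1.13 for its 2 pieces in replicate 2. The remaining 3 scored between 0.706 and 0.821, so the widest members were not the strongest.

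Clusters of distal 3L that only 1 replicate called were not among the strongest. The highest of these in replicate 1 lay at 14086601 to 14091469 with a score of 1.01, rank 305 of 990, and was 12187 bp from the nearest cluster of replicate 2. The next lay at 19744886 to 19746897 with 0.799 and at 17980398 to 17982492 with 0.793. In replicate 2 they lay at 19480139 to 19482574 with 0.794, rank 451 of 894, at 6990006 to 6991628 with 0.711 and at 1716080 to 1717420 with 0.662. Each of these 6 was overlapped by 1 combined cluster.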

How the data were processed

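RPD3 ChIP-seq was done in 2 ChIP and 2 Input samples. The submitters' processing notes name Bowtie 0.12.7. Each deposited list gives regions of significant enrichment on FlyBase release 5, per the file headers, with 1 score per cluster from the authors. How clusters were called, how the replicates were joined and what the score measures is not stated in the labels or headers. Members and named clusters were chosen with earlier results of these data known.

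Named clusters are the 10 highest-scoring members in both replicates, the 5 widest, the 3 highest in neither, the 3 highest unshared clusters of each replicate, the 3 densest and sparsest windows, the 3 longest gaps and the 3 largest groups. Clusters overlapped from 1 bp on. Clusters of 10 kb or more were left out of covered shares. Intervals are Wilson 95% intervals. Depth is unknown. No test between samples was made, and correlations across clusters or windows carry no p-value. Alternatives changed the required overlap (50% of the shorter cluster), the score range (upper 50% of each list), the minimum width, the merging of near clusters (200 bp), the width limit, the window (250 kb) and the replicate used. Python 3.11.15, pandas 2.3.3, NumPy 2.4.6 and SciPy 1.17.1 were used.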

Additional observations from a re-analysis of the deposited data

How the results depend on the processing

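When shared clusters had to overlap by 50% of the shorter, with no upper width limit, or with windows of 250 kb, none of the results computed under them moved beyond its limit. That limit was the SD of the replicates for the covered share and the Wilson interval for shares of members. For counts, correlations and score differences it was a fixed tolerance, not a measured spread. The higher-scoring 50% of each list, which holds fewer clusters by construction, gave 556 members, 58.3% in both replicates and 14.7% in 1, a mean covered share of 8.04%, a rho of 0.77 between replicate scores, 15.0% of gaps under 2 kb and a difference of median score between members in both and in neither of 0.50, where all clusters gave 0.45. Among members at least as wide as the narrowest replicate cluster 61.6% were in both and 14.4% in neither, with a difference of 0.47. With clusters closer than 200 bp merged there were 1165 members and 28.1% of gaps were under 2 kb. Each replicate alone gave 894 to 990 clusters, covered shares of 12.1% to 14.1% and 25.4% to 27.2% of gaps under 2 kb, against 34.2% in the combined list. Apart from the construction of these settings, the cause was not tested. No paired analysis was possible because there is only the ChIP group, with no list for Input. Unknown read depth and unknown coverage of repeats limit what the absence of a cluster means.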

Other observations

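The only region that any of the 3 lists names as depleted lay on distal 3L, at 12734252 to 12735833 in the combined list, with a score of -0.0166. Replicate 2 called a cluster at 12734238 to 12735839, which contains the whole depleted region and has the lowest score of all 4991 clusters of that replicate, 0.144. Replicate 1 had no cluster there, and its nearest one, at 12731897 to 12734244 with a score of 0.531, ended 7 bp before the depleted region. Combined clusters lay on both sides, at 12731680 to 12734075 and 12736356 to 12738113, with scores of 0.320 and 0.299. The same position was thus listed as enriched in replicate 2 and as depleted in the combined list.

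The 3 highest-scoring members found in neither replicate stood far above the other 358 of their class in score. They lay at 21148979 to 21149979 with a score of 2.03, at 9385588 to 9386638 with 1.78 and at 11611746 to 11612746 with 1.66, which are ranks 5, 21 and 30 of the 1295 members. They were 1001 to 1051 bp wide, at or near the smallest width in the list. The nearest replicate clusters were 14077 and 14058 bp, 2441 and 4532 bp, and 3061 and 3058 bp away in replicates 1 and 2. The next member of the class, at 402505 to 403506, scored 0.737, and none had a score between 0.8 and 1.5. On all chromosomes 47 of the 1839 combined clusters in neither replicate scored above 1.

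At the low end the member at 4185848 to 4187197 scored 0.0398, rank 7144 of 7145 in the whole combined list, and was in neither replicate. Of the 1295 members 220 had exactly the same score as some other combined cluster, and their median width was 1372 bp.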
